A study of Rattus norvegicus with 6 samples.

Results

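The genes described here are the secreted insulin-like growth factor (IGF) binding proteins and the IGFs themselves in INS-1, a rat insulinoma line that makes insulin and serves as a beta cell model. They were taken by name from the deposited gene table: Igfbp1, Igfbp2, Igfbp3, Igfbp4, Igfbp5, Igfbp7, Igf1 and Igf2. All 8 were found, each in a single row, among 35362 gene rows. Both groups were INS-1 cells at passages 75 to 80 that overexpressed Flag-tagged menin from a pMX-puro retrovirus. The S487A group carried menin with alanine in place of a serine, a residue that cannot be phosphorylated, and the S487D group carried menin with aspartate there, an acidic residue used to stand in for phosphoserine. Menin is a nuclear scaffold of histone methyltransferase complexes, and by its title the series concerns phosphorylation of menin under GLP-1 signalling. Each group held 3 libraries of sequenced mRNA. Cells with wild-type menin or an empty vector were not analysed here, so each difference is S487D relative to S487A. The labels do not say whether libraries of a group came from separate transductions or cultures, so p-values cover the spread among these libraries alone, and that spread may be technical.

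IGF1 and IGF2 are small secreted hormones related to insulin that signal through the IGF1 receptor, and IGF2 is also taken up and cleared by the IGF2 receptor. In serum and between cells most IGF is held by binding proteins that match or exceed the receptor in affinity, so these proteins both carry the ligand and keep it from the receptor until proteases cut them. Beta cells make IGF2, which can act back on them, whereas circulating IGF1 comes mainly from liver. IGFBP7 is a more distant relative that binds IGFs weakly.

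Libraries held 9444801 to 10867550 reads assigned to genes, and values are RPKM, reads per kilobase of gene length with the library total scaled out. Men1, the row of the overexpressed gene, was at 74.3 ± 2.8 RPKM (SD, n = 3) in S487A. It was higher in S487D, at 112 ± 7.8 (limma adjusted p = 2.89e-05). The groups thus differed in Men1 mRNA as well as in the mutated residue, and these cannot be told apart here. Which species the construct came from is not stated. Of 39 markers of islet and other cell types, 13 passed the detection filter, 10 of them the beta cell markers, which summed to 5359 to 5905 RPKM in S487A and 17646 to 18834 in S487D. Of 8 fibroblast markers, Col3a1, Dcn, Lum and Pdgfrb were at 0 in every library and Col1a1 and Col1a2 were at most 0.0855 RPKM. The summed level of the 8 was 65.9 to 69.8 RPKM in S487A and 96.4 to 104 in S487D, almost all of it Thy1 (66.2 and 99.6 RPKM on average), a surface protein that neurons also carry. The other 2 were Gcg, the glucagon gene (96.0 and 819 RPKM), and Krt7, a duct keratin (217 and 82.7 RPKM). Summed markers of endothelium, acinar cells and immune cells stayed at or under 0.996 RPKM, and Sst and Ppy were at 0. The part of these marker differences in the IGF results was not tested.

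S487D cells had less Igfbp1 mRNA and more Igfbp4, Igfbp2 and Igfbp3 mRNA than S487A cells, while Igfbp5, Igfbp7 and Igf2 did not pass the test. Of the 8 genes, 7 passed the filter of at least 1 RPKM in at least 3 libraries. Among these 7, 3 rose, 1 fell and 3 were not called (limma on log2(RPKM + 1), Benjamini-Hochberg adjusted p under 0.05). Among all 12527 genes tested, 44.4% were called, 20.1% as higher and 24.3% as lower in S487D, so a count of 4 in 7 is not far from the background. Upward calls made up 45.3% of all calls with the values as deposited, 55.4% with quantile normalization and 58.9% with median centring. The median log2 change was 0.07 over the 7 genes and -0.01 over all genes tested. The groups' values did not overlap in 5 of the 7, against 54.6% of all genes tested. With 3 libraries a side, the smallest p of an exact two-sided permutation test is 0.1 for any one gene, so calls rest on the model fitted across all genes.

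**Figure D1:**
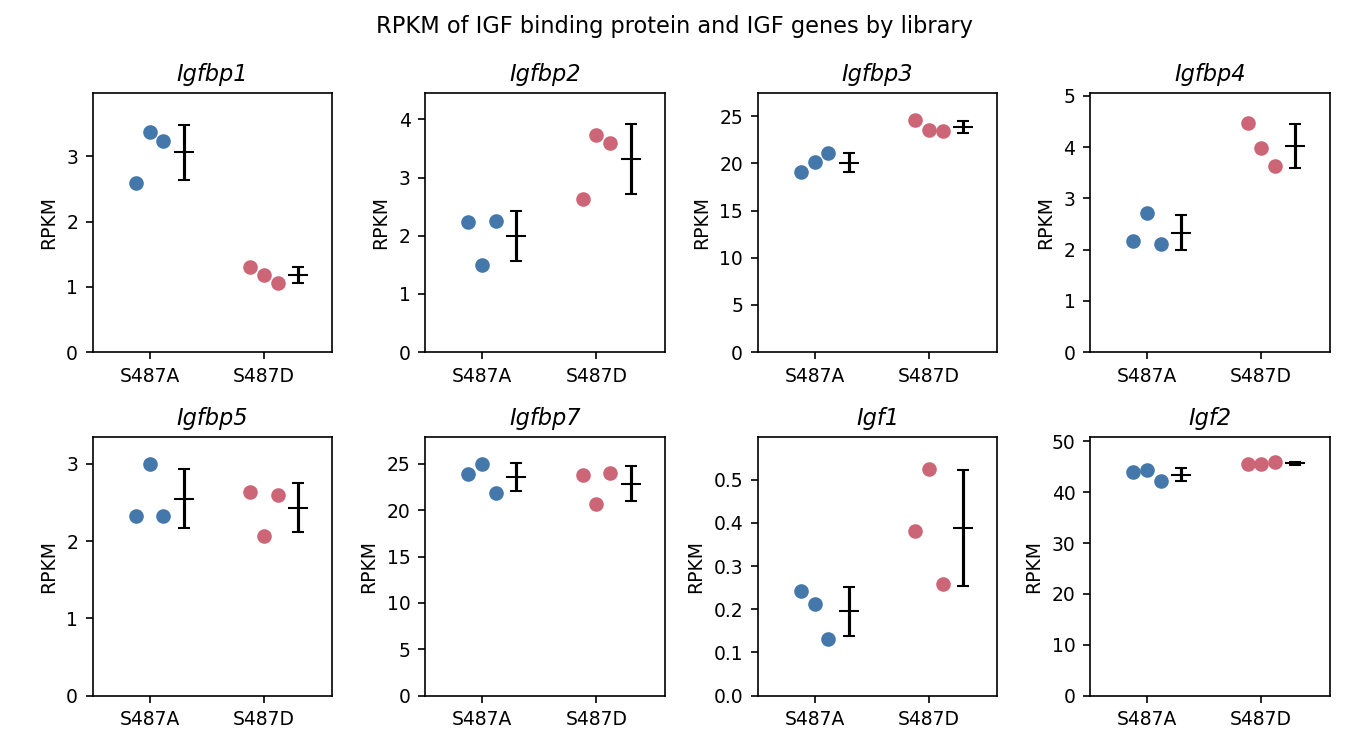
RPKM (vertical axes, each from 0, with its own scale) of the 8 genes in the 3 S487A libraries (blue) and the 3 S487D libraries (red); black marks are the mean ± SD of each group. The groups separate for Igfbp1, Igfbp2, Igfbp3, Igfbp4, Igf1 and Igf2, and overlap for Igfbp5 and Igfbp7.

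Promoter windows of all 8 genes came from RefSeq sequence of GRCr8, a rat assembly other than the one of the RPKM table. The 250 bases before the start of the 4 called genes are printed because these promoters lie beside the genes that moved, the facing pair Igfbp1 and Igfbp3 first, 5′ to 3′ in gene direction. Capitals mark matches to the motifs searched on both strands, which were CAAAACA, found in the insulin response element of Igfbp1, the FoxO motif TGTTTAC, the TATA motif TATAAA and TGACG, the core of the cAMP response element. No match overlapped another. The windows are Igfbp1 at chr14:86261027-86261276 (plus strand), Igfbp3 at chr14:86277945-86278194 (minus strand), Igfbp4 at chr10:84491221-84491470 (plus strand) and Igfbp2 at chr9:81864561-81864810 (plus strand), all GRCr8.
Igfbp1: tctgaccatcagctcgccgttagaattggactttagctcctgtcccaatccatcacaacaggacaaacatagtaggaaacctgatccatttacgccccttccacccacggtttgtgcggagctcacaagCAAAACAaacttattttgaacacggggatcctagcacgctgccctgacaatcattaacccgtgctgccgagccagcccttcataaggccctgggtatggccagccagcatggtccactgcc
Igfbp3: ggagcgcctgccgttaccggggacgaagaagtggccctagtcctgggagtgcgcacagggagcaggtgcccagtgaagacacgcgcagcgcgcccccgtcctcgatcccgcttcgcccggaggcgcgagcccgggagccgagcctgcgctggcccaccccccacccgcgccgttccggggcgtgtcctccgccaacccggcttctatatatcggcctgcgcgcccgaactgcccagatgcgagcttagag
Igfbp4: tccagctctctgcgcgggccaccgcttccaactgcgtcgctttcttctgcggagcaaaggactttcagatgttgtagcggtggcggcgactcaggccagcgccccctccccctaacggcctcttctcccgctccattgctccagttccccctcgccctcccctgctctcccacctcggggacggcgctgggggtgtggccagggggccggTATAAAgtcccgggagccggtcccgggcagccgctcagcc
Igfbp2: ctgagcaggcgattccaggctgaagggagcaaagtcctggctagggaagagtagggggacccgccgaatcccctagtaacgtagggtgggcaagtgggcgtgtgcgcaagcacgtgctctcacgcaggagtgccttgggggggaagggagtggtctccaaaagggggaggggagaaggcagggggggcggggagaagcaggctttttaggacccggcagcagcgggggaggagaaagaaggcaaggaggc

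CAAAACA stood in the Igfbp1 window from base 121 to base 115 before the start, as written. The letters occurred in 5.46% of 33469 rat promoter windows of that length. Among the other members only the Igf1 window also held them, from base 67 to base 61 before the start. TATAAA, found in 12.9% of windows, occurred in Igfbp4 alone among the 8 genes, from base 40 to base 35. TGACG, in 18.2% of windows, and TGTTTAC, in 3.21%, were in none of the 9 windows of the members. The Igfbp1 window had 52.8% G and C, near the median of 51.2% for all windows, against 71.6% for Igfbp3, 68.8% for Igfbp4 and 64.0% for Igfbp2. Foxo1, a gene of the FoxO family, is named here after its values were seen. Its level was 22.1 ± 0.89 RPKM in S487A and 11.0 ± 1.4 in S487D (limma adjusted p = 1.27e-05). Foxo1 lies at chr2:141451234-141527016 (rn6). No other FoxO gene is given here, and whether genes near Foxo1 fell with it was not tested. FoxO binding at these windows was not measured, and a link between the values was not tested.

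Igfbp1 encodes a binding protein made mainly by liver, and insulin lowers its transcription through FoxO factors that bind an insulin response element in its promoter. The gene lies at chr14:87448716-87453783 (rn6, plus strand). It was read at 2.59, 3.37 and 3.24 RPKM in S487A and at 1.30, 1.19 and 1.06 RPKM in S487D. Each S487D library lay below each S487A library. The group means were 3.06 ± 0.42 and 1.18 ± 0.12 RPKM (SD, n = 3), a ratio of 2.59 in favour of S487A. The log2 change on the log2(RPKM + 1) scale, which understates changes of genes near 1 RPKM, was -0.89 (SE 0.10, limma adjusted p = 9.93e-05). It was -1.36 with a pseudocount of 0.01 and -1.35 with limma voom on recovered reads. Of all genes tested, 3.34% changed by more than Igfbp1. The reads behind these values were few, 39, 55 and 50 in S487A and 20, 17 and 15 in S487D. Summed by group they were 144 reads (exact Poisson 95% interval 121 to 170, counting error only) and 52 reads (38.8 to 68.2), and these intervals did not meet.

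Igfbp4 encodes a binding protein that mostly holds back IGF action until the protease PAPP-A cuts it. The gene lies at chr10:86950555-86962563 (plus strand). Its values were 2.16, 2.72 and 2.11 RPKM in S487A and 4.46, 3.98 and 3.62 RPKM in S487D. The lowest S487D library was above the highest S487A library. The means were 2.33 ± 0.34 and 4.02 ± 0.42 RPKM, 1.72 times higher in S487D, with 0.59 as the log2 change (limma SE 0.099, adjusted p = 0.00109). The change rested on 47 to 64 reads per S487A library and 74 to 99 per S487D library.

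Igfbp2 encodes another soluble carrier, abundant in fetal tissue and brain, and menin has been reported to regulate it in fibroblasts. It lies at chr9:80118029-80144804 (plus strand). Its RPKM values were 2.23, 1.49 and 2.25 for S487A against 2.64, 3.73 and 3.60 for S487D. S487D replicate 1 was the lowest of its group, and it still lay above all S487A libraries. The means were 1.99 ± 0.43 and 3.32 ± 0.60 RPKM, 1.67 times higher in S487D (log2 change 0.53, SE 0.14, limma adjusted p = 0.0107). Of the 4 calls this one lay nearest the threshold, with an adjusted p of 0.0439 when S487D replicate 2 was left out and 0.0466 when no low-value filter was set. Each library held between 21 and 46 reads of the gene.

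Igfbp3 encodes the main IGF carrier of serum, where it joins the acid-labile subunit in a long-lived complex. The gene lies at chr14:87457647-87465374 (minus strand). It was read at 19.1, 20.1 and 21.0 RPKM in S487A and at 24.6, 23.5 and 23.4 RPKM in S487D. The groups were separate, by a small margin. The means were 20.1 ± 0.98 and 23.9 ± 0.68 RPKM, 1.19 times higher in S487D (log2 change 0.24, SE 0.051, limma adjusted p = 0.00446). With 461 to 608 reads per library it was read more deeply than the other called members, and its change was the smallest of the 4; 35.3% of genes tested changed by more.

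Igfbp5 encodes a binding protein that also sticks to the extracellular matrix. It lies at chr9:80154230-80166813 (minus strand) and was read at 2.33, 3.00 and 2.33 RPKM in S487A and 2.64, 2.07 and 2.60 RPKM in S487D. The values of the groups were interleaved. The log2 change was -0.05 with a 95% interval of -0.29 to 0.19 (limma adjusted p = 0.753), which on this scale runs from 0.819 to 1.14 times the S487A level. Its sign turned after median centring and quantile normalization.

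Igfbp7 lies at chr14:33010300-33070193 (plus strand) and encodes the weak IGF binder, which is also a matrix protein of blood vessels. Its values were 23.9, 24.98 and 21.9 RPKM in S487A and 23.8, 20.7 and 24.1 RPKM in S487D. These ranges overlapped. The log2 change was -0.04, with a 95% interval of -0.20 to 0.11 (limma adjusted p = 0.634), and its sign turned after median centring. The row overlaps Polr2b by 90 bases and also LOC103692785 and LOC103692786, all on the other strand. The sources used here do not say that counting used strand, so reads of opposite genes cannot be told apart there. Polr2b itself was at 33.5 ± 0.52 and 35.2 ± 1.1 RPKM and was not called (adjusted p = 0.24).

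**Figure D2:**
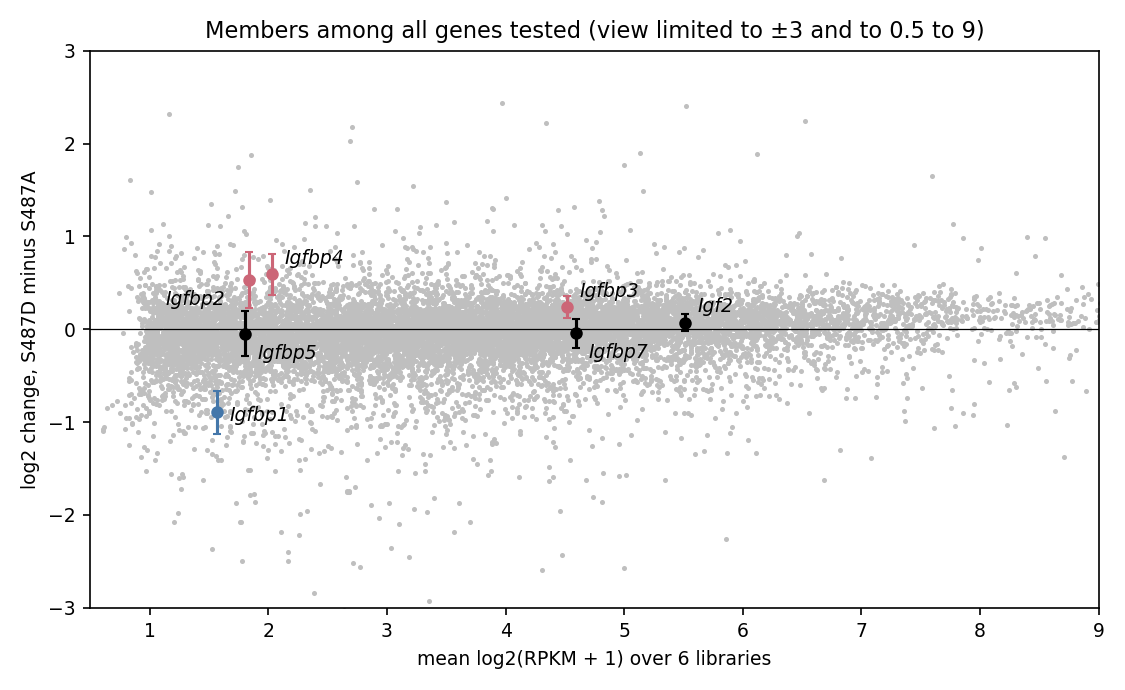
Log2 change (S487D minus S487A, vertical) against mean log2(RPKM + 1) over the 6 libraries (horizontal) for all genes tested (grey) and the 7 tested members, with 95% intervals; red marks higher in S487D, blue lower, black not called. Igfbp1 lies at -0.89 near the low end of expression, and Igfbp7, at -0.04, lies within the central band of genes.

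Igf2 was the most abundant of the 8 genes and Igf1 the least. Igf2, at chr1:215828102-215839081 (minus strand), was read at 44.0, 44.3 and 42.1 RPKM in S487A and at 45.6, 45.5 and 46.0 RPKM in S487D. The groups did not overlap, yet they stood only 1.05-fold apart on average (43.5 ± 1.2 and 45.7 ± 0.28 RPKM). The log2 change was 0.07 with a 95% interval of -0.02 to 0.16 (limma adjusted p = 0.177). Igf2 passed the threshold after median centring (log2 change 0.13, adjusted p = 0.0289). The row overlaps LOC100909737 on the other strand by 970 bases. That row was at 2.75 ± 1.0 and 3.13 ± 0.52 RPKM.

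Igf1, at chr7:28412123-28491815 (plus strand), stayed under the filter in all 6 libraries. It was listed at 0.242, 0.211 and 0.131 RPKM in S487A and at 0.382, 0.525 and 0.257 RPKM in S487D, from 18, 17 and 10 reads and 29, 37 and 18 reads. The lowest S487D library was just above the highest S487A library. Over each group this made 45 reads (95% Poisson interval 32.8 to 60.2) and 84 reads (67.0 to 104). With no filter its log2 change on the log2(RPKM + 1) scale was 0.21 (limma adjusted p = 0.11). With voom on recovered reads and no filter, a setting chosen after seeing the data, it was 0.96 (adjusted p = 0.0199). Igf2 exceeded Igf1 by 86.8 to 321 times on the RPKM scale.

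Summed over the 6 binding protein genes, RPKM was 52.3, 55.7 and 52.9 in S487A and 59.5, 55.2 and 58.3 in S487D. The groups overlapped (53.6 ± 1.8 and 57.7 ± 2.2, exact permutation p = 0.2, two-sided). Igfbp3 and Igfbp7 together supplied 80.1 to 82.2% of that sum in every library. Within the sum, some shares differed between the groups. Igfbp1 supplied 5.71 ± 0.66% in S487A and 2.05 ± 0.21% in S487D, and Igfbp4 4.34 ± 0.48% and 6.97 ± 0.68%. The share of Igfbp7 was 44.0 ± 2.3% and 39.6 ± 1.9%, and that of Igfbp3 37.5 ± 2.0% and 41.4 ± 1.2%. Igfbp2 supplied 3.74 ± 0.91% and 5.78 ± 1.2%. Shares of 1 sum are tied to each other, and for these 5 genes the shares of the groups did not overlap (exact permutation p = 0.1 each, the smallest possible). The RPKM values of the groups did not overlap in 54.6% of all genes tested. For Igfbp3 the margin was small, with shares up to 39.8% in S487A and from 40.1% in S487D. It was also small for Igfbp7, from 41.4% in S487A and up to 41.2% in S487D. Igfbp2 shares likewise nearly met, up to 4.27% in S487A and from 4.43% in S487D. Igfbp7 was not called on its own level. The share of Igfbp5 overlapped (4.75 ± 0.55% and 4.21 ± 0.41%, exact permutation p = 0.5). Without Igfbp3 and Igfbp7, the sum of the other 4 genes was 9.31 to 10.6 RPKM in S487A and 10.9 to 11.0 RPKM in S487D, which did not overlap (exact permutation p = 0.1).

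**Figure D3:**
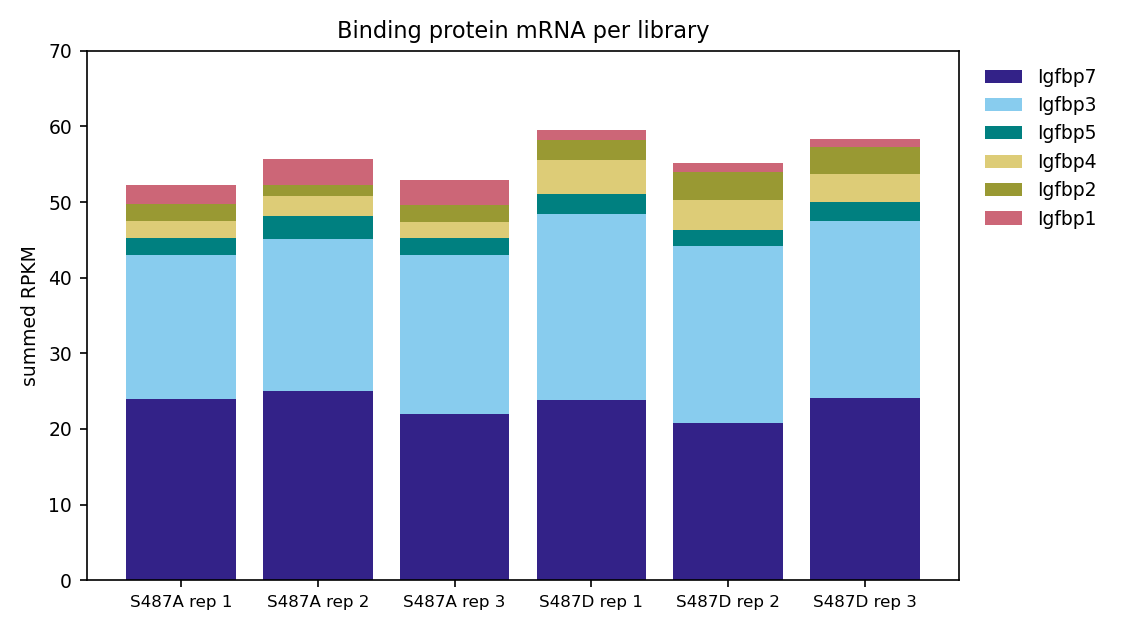
Stacked RPKM of the 6 binding protein genes (vertical axis) in each library (horizontal axis). Igfbp7 and Igfbp3 fill most of each bar, from 80.1 to 82.2%, and the Igfbp1 layer at the top is thinner in the 3 S487D libraries.

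In S487A, Igf2 ranked highest, then Igfbp7 and Igfbp3, whose ranges did not meet (21.9 to 24.98 and 19.1 to 21.0 RPKM). Igfbp1, Igfbp5, Igfbp4 and Igfbp2 followed, each overlapping its neighbour in that order. In S487D, Igfbp3 and Igfbp7 overlapped and could not be ranked. Igfbp4, Igfbp2 and Igfbp5 followed with overlapping neighbours, and Igfbp1 stood below all of them, at no more than 1.30 RPKM where the lowest Igfbp5 library had 2.07. Igfbp1 thus went from the upper end of the low group in S487A to its bottom in S487D.

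Several of these genes are neighbours in the genome. Igfbp1 and Igfbp3 face each other with their 3' ends 3863 bases apart, and in S487D Igfbp1 fell while Igfbp3 rose. The ratio of Igfbp3 to Igfbp1 on the RPKM scale was 7.38, 5.97 and 6.50 in S487A and 19.0, 19.8 and 22.1 in S487D (exact permutation p = 0.1). Adcy1, an adenylyl cyclase gene 24204 bases from Igfbp1 on its other side, rose from 18.1 ± 0.60 to 22.8 ± 1.2 RPKM (adjusted p = 0.00123). Both nearest tested neighbours of Igfbp1 were thus higher in S487D where Igfbp1 was lower. Igfbp2 and Igfbp5 lie in the same tail-to-tail order, 9425 bases apart. The ratio of Igfbp2 to Igfbp5 was 0.959, 0.498 and 0.966 in S487A and 0.999, 1.81 and 1.38 in S487D, where S487D replicate 1 nearly met the S487A libraries.

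Igf2 lies 17885 bases from Ins2, an insulin gene on the same strand, and both belong to a known imprinted gene cluster. Ins2 was at 108 ± 1.4 RPKM in S487A and rose to 341 ± 16 in S487D (adjusted p = 6.6e-09). The ratio of Ins2 to Igf2 went from 2.48 ± 0.066 to 7.46 ± 0.37. LOC102548568, 5544 bases from Igf2 on the Ins2 side, rose from 2.13 ± 0.057 to 2.99 ± 0.28 RPKM (adjusted p = 0.0079). Mrpl23, the nearest tested gene on the other side, was not called (130 ± 8.5 and 143 ± 8.1 RPKM, adjusted p = 0.0921). Around Igfbp4, both neighbours rose: Smarce1, a chromatin remodelling subunit gene, from 32.4 ± 0.88 to 60.4 ± 3.1 RPKM (adjusted p = 9.74e-07), and Top2a by a log2 change of 0.12 (adjusted p = 0.0321). Rpl37a-ps1, a pseudogene row near Igfbp2 whose reads could come from its parent gene, rose by 0.18 on the log2 scale (adjusted p = 0.0112), and Noa1, near Igfbp7, was not called (adjusted p = 0.32).

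The rest of the IGF axis was described with a list of 45 genes, of which 44 were found and 20 passed the filter. Of these 20, 7 rose, 5 fell and 8 were not called, or 60.0% called against 44.4% of all genes tested; the median log2 change was 0.02. After quantile normalization 9 rose and 4 fell. The 24 genes under the filter reached at most 1.36 RPKM in any library.

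The 3 receptor genes above the filter all changed. Igf1r, the receptor through which both IGFs signal, was at 5.32, 5.39 and 5.76 RPKM among S487A libraries and 9.003, 8.84 and 8.69 among S487D libraries. No library of one group came near the other. The log2 change was 0.60 (SE 0.060, limma adjusted p = 4.04e-05). Igf2r, the clearing receptor, rose less, from 40.1 ± 1.2 to 46.7 ± 1.0 RPKM (adjusted p = 0.00257). Insr, which encodes the receptor for insulin itself, moved the other way: it averaged 7.02 ± 0.31 RPKM in S487A and fell to 3.30 ± 0.14 (adjusted p = 6.43e-06). On the RPKM scale Insr was thus above Igf1r in S487A and below it in S487D; the Insr row overlaps LOC103690844 on the same strand. Among receptor adaptors, Irs2, which links these receptors to PI3 kinase, rose from 26.6 ± 0.61 to 36.1 ± 2.2 RPKM and Grb14, an adaptor that restrains insulin receptor signalling, from 6.98 ± 0.18 to 12.1 ± 0.42, in a row that overlaps LOC102552585. Shc1 was not called (22.5 ± 0.18 and 21.3 ± 0.91 RPKM, adjusted p = 0.24).

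Of 10 listed protease and inhibitor genes found, 3 passed the filter. Stc1, stanniocalcin, an inhibitor of the IGFBP4 protease PAPP-A, was read at 8.43, 8.77 and 7.99 RPKM in S487A and at 45.8, 39.6 and 43.0 RPKM in S487D, the largest rise on the list (log2 change 2.22, SE 0.062, adjusted p = 1.11e-08). Pappa, the gene of that protease, reached at most 0.0879 RPKM. Ctsd, a lysosomal protease able to cut binding proteins, rose from 176 ± 3.2 to 218 ± 6.2 RPKM (adjusted p = 1.5e-04), and Htra3, a secreted serine protease, fell from 19.0 ± 1.1 to 14.6 ± 0.38 (adjusted p = 6.5e-04). The other carriers were under the filter: Igfbp6 reached at most 0.366 RPKM, Igfals, the acid-labile subunit gene, at most 0.229, and Igfbpl1 was listed at 0 in every library. The Igf2 mRNA-binding genes Igf2bp1, Igf2bp2 and Igf2bp3 reached at most 0.246 RPKM.

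Among convertases that cut proproteins, Pcsk6 rose from 7.90 ± 0.34 to 10.0 ± 0.40 RPKM (adjusted p = 0.00246), and Furin (27.7 ± 0.48 and 28.3 ± 1.0) and Pcsk4 (2.08 ± 0.14 and 2.59 ± 0.49) were not called. Pcsk4 passed the threshold after quantile normalization (adjusted p = 0.0371) and without S487D replicate 1 (0.0261). Of 5 growth hormone pathway genes, which drive Igf1 in liver, the receptor gene Ghr fell from 31.6 ± 2.3 to 25.2 ± 1.2 RPKM (adjusted p = 0.00219) and the others, among them Jak2 and Stat5b, were not called. Socs2, a feedback inhibitor, was at 80.8 ± 6.9 and 81.8 ± 5.3 RPKM. Of proteins that share the IGFBP domain, Wisp3 fell from 3.61 ± 0.78 to 2.04 ± 0.45 RPKM (limma adjusted p = 0.00802) in a row overlapping Tube1 on the other strand. Wisp3 lies at chr20:44237491-44255064, and whether nearby genes fell with it was not tested. Htra4 fell by a log2 change of -0.24, a call just inside the threshold (adjusted p = 0.0445). That call was lost without a filter (0.11), after quantile normalization (0.198) or median centring (0.0961), and when any library but S487A replicate 2 was left out (0.064 to 0.15).

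**Figure D4:**
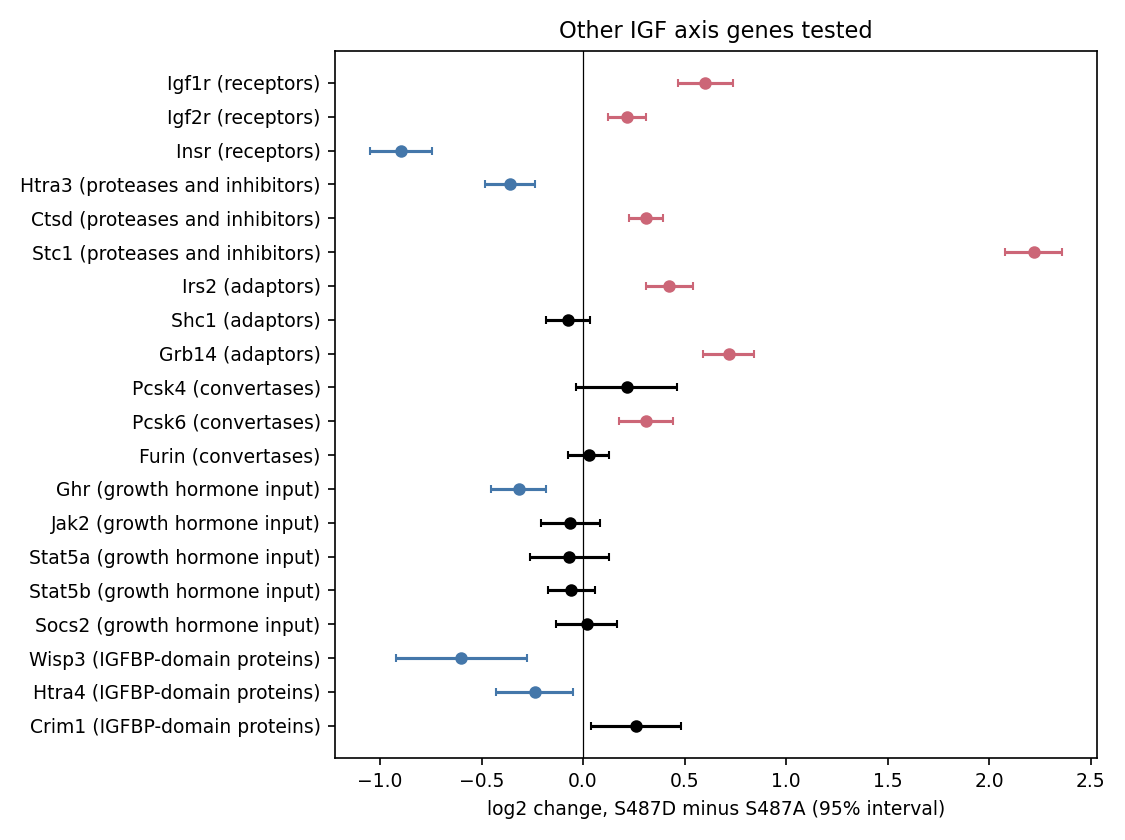
Log2 change with its 95% interval (horizontal axis, S487D minus S487A) for the 20 tested genes of the IGF axis list, grouped by role; red marks higher in S487D, blue lower, black not called. Stc1 stands apart at 2.22, and Igf1r (0.60) and Insr (-0.90) lie on opposite sides of 0.

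The genes whose log2(RPKM + 1) followed each member most closely over the 6 libraries were named by Pearson's r as a description; these libraries share the group difference, so high values are common. Igfbp1 was followed by Selo, Thra and Wscd1 (r of 0.997 to 0.999), out of 1113 genes over 0.95. Igfbp3 was followed by Fkbp4, Tmem185b and Zcchc3 (0.998 to 0.999), out of 653 such genes. Igfbp4 was followed by Exd2, Prkcd and Thoc5 (0.992 to 0.997) and Igfbp2 by Rd3, Rab24 and Spryd4 (0.992 to 0.995), out of 265 and 57. For the uncalled members such genes were fewer, with 31 for Igf2 (led by Tigd3, Gpaa1 and Nop16), 12 for Igfbp7 (among them Spag9 and Atp2b2) and 7 for Igfbp5 (led by LOC100362202, Clstn3 and LOC103694470). No member was among the 3 genes closest to another member.

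**Figure D5:**
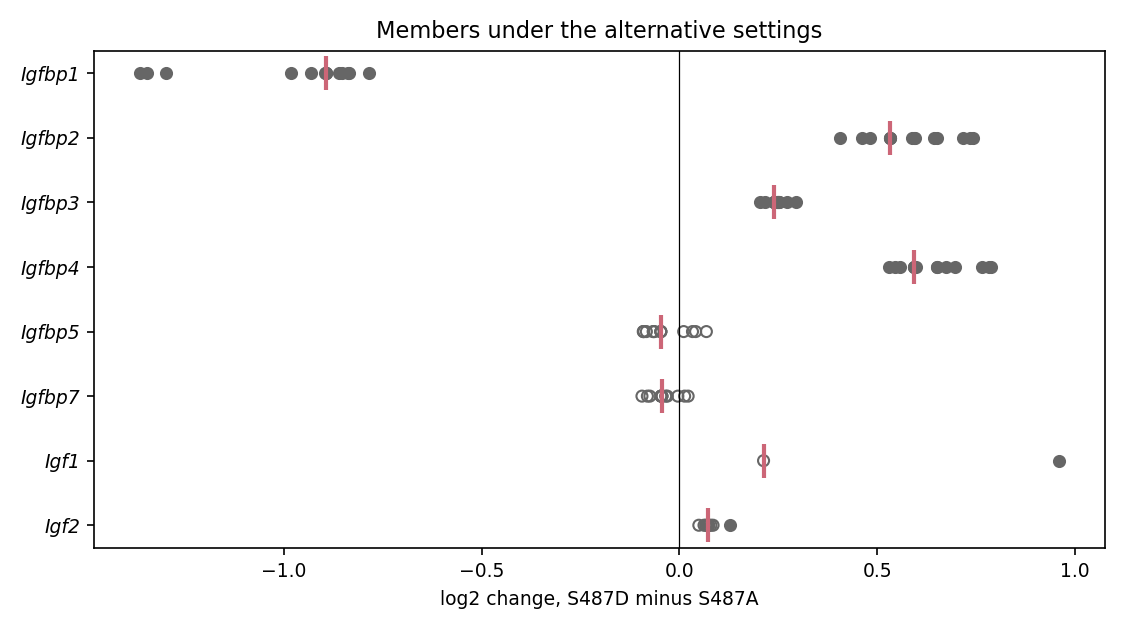
Log2 change (horizontal axis) of each of the 8 genes as reported (red bar) and under each alternative setting (circles, filled where the adjusted p was under 0.05). Igfbp1 stays between -1.36 and -0.78 and Igfbp2, Igfbp3 and Igfbp4 stay above 0, while Igfbp5 and Igfbp7 lie on both sides of 0.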

How the data were processed

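mRNA libraries of 6 samples were made with a TruSeq RNA kit, per the labels' protocols. The authors deposited RPKM per gene and library with rn6 positions and gene lengths, per the file headers. The submitters' processing notes name bcl2fastq 2.17, cutadapt and TopHat2 2.0.13. The read counter, annotation and filters behind the table: not given in the sources used here. RPKM times length fell within 0.05 of whole multiples of a step for at least 99.95% of values above 0, so reads were recovered, and 3 reads in a 1 kb gene stood for 0.276 to 0.318 RPKM. Titles gave groups and replicate numbers. Between same-group libraries the median chi-square was 1.36 to 1.88 times the median that counting noise alone would give, so none was merged.

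A gene was tested if 3 or more libraries reached 1 RPKM. The test was limma 3.58.1 (R 4.3.3), two-sided, on log2(RPKM + 1) with an intensity trend and group as the only term, Benjamini-Hochberg over all genes tested, threshold 0.05. The fit was also run on simulated data in which far fewer genes changed than were called here. That run therefore does not show how the fit performs on these data. Alternatives were other pseudocounts (0.1 and 0.01), filters (none, RPKM 5) and scalings (quantile, median), no trend, a replicate block, voom on recovered reads, and each library left out; voom without a filter was added after seeing the data. The members and lists were chosen with earlier results of these data known. Named genes are Men1, the members, every called gene of the IGF axis list and its 6 most abundant uncalled ones, the nearest tested neighbour within 500 kb on each side, overlapping rows, and the 3 genes of highest r, of which 1 is not reported here. Single cell type markers, Foxo1, Ins2, Pappa, other carriers and Igf2bp genes fall outside this rule and were named after their values were seen. Protein sequences were not used here. Python 3.11.15 and scipy 1.17.1 made tables, exact tests and figures.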

Additional observations from a re-analysis of the deposited data

How the results depend on the processing

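The calls of Igfbp1, Igfbp2, Igfbp3 and Igfbp4 kept direction and side of the threshold in every alternative in which they were tested; a filter at RPKM 5 removes Igfbp1, Igfbp2, Igfbp4 and Igfbp5 and left 1 call among 3 members. With any single library left out, 4 members were called, 4650 to 4985 genes in all and 11 to 12 of the IGF axis list. Uncalled values turned sign: Igfbp5 to 0.0682 (quantile normalization) and 0.0107 (median centring), and -0.0914 to 0.0410 with a library left out; Igfbp7 to 0.0131 (median centring), and -0.0947 to 0.0220; Socs2 to -0.0108 (quantile normalization), and -0.0284 to 0.0860; Stat5b to 0.0106 (quantile normalization) and 5.57e-05 (median centring). The cause was not tested.

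The replicate block used the numbers of the titles, which are not stated to mark a shared culture or day. Deviations of same-numbered libraries from their group means correlated at 0.0035, -0.060 and 0.010 across genes. No common deviation by number was thus seen, but these values cannot tell whether same-numbered libraries shared a culture or day. The replicate block called 5335 genes against 5564 without it, the same 3 rises and 1 fall among members, and 11 axis genes against 12, the one lost being Htra4 (adjusted p = 0.0615). Depth limits the low members most: Igfbp1 rests on 15 to 55 reads per library and Igf1 on 10 to 37.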
